A study of Caenorhabditis elegans with 83 samples.

Results

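The heterochronic pathway genes lin-14, lin-28, lin-29, lin-41, lin-42, hbl-1 and blmp-1 were examined for binding of HDA-1, SET-26 and HCF-1, which act on chromatin, in day 1 adult C. elegans. The 7 genes were taken by name from 19985 protein-coding genes, by a rule that uses no measured value, although earlier results of these data were known when the pathway was chosen. A peak was assigned to a gene when it overlapped the gene or the 2000 bp upstream of it by at least 1 bp. By this rule 365 of 201446 unique peaks in 22 peak lists lay at the 7 genes, of which 125 were at lin-14, 64 at lin-28, 61 at lin-42, 35 at lin-41, 34 at blmp-1, 29 at lin-29 and 17 at hbl-1.

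Heterochronic genes set the order of larval stages, so that each cell division pattern is used once and at its own time. Early genes such as lin-14 and lin-28 are shut off by small RNAs, and the later fall of lin-41 and hbl-1 permits the zinc-finger factor LIN-29 to start the larval-to-adult switch in the epidermis. SET-26 is a chromatin reader of the MLL5 family, HCF-1 is the worm host cell factor, a transcriptional co-regulator, and HDA-1 removes acetyl groups from histones as a class I enzyme.

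CUT&RUN, in which a nuclease is brought to a protein by an antibody and cuts out the DNA it sits on, was used to profile tagged factors expressed from their own loci: rwIs27[set-26::ha], rwIs33[hcf-1::gfp::3xflag] and syb5185[hda-1::gfp::ha]. Mutant worms carried the same tag with set-26(tm2467) or hcf-1(pk924), and were set against worms with the tag alone (called control here). Worms without a germline carried the temperature-sensitive glp-1(e2141) allele on OP50 bacteria or were fed glp-1 RNAi, and worms with a germline were wild type at glp-1 and ate OP50 (called wild type here) or L4440, the empty RNAi vector. All were grown at 25°C for about 48 h. HCF-1 was profiled in set-26(tm2467) on glp-1 RNAi, on L4440 and with glp-1(e2141), SET-26 in hcf-1(pk924) on glp-1 RNAi and L4440, and HDA-1 in both mutants on glp-1 RNAi and L4440. The samples were whole worms, so fewer cells that hold a factor at a gene and less factor per cell cannot be told apart.

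Each list was called on the merged replicates of a group, 2 in most groups, so no value below has a replicate error and no test was made. Fold is the authors' ratio of fragments piled up at the summit, the highest point of a peak, to the local background in the control library. The control library was untagged worms treated with the same antibody in 6 lists and histone H3 of the same genotype in 16 lists. In glp-1(e2141) the SET-26 and HDA-1 antibody lists share the background library. Merged libraries held 27.6 to 71.5 M tags for the factors and 27.1 to 85.6 M tags for the backgrounds, and lists held 1267 to 13422 unique peaks. Intervals around a fold are exact Poisson intervals at 95% of the fragments at the summit and cover counting error only. Of 15 germline marker genes, the SET-26 lists of worms with a germline held a promoter peak at 13 to 14 and the HCF-1 lists at 12 to 14, whereas the HDA-1 lists held 1 to 4. The glp-1(e2141) lists held 0 to 3, but the glp-1 RNAi control lists held 11 for HCF-1 and 8 for SET-26, which goes against the label without germline. Of 8 epidermis markers, 0 to 3 had a peak in any list.

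Summits close to each other in different lists were joined into sites by a distance of 200 bp. A summit within that distance of 2 sites counts at both. This gave 99 sites. Of these, 3 sites in chromosomes X and II are shown as 201 bases around the summit, because they hold the summit with the highest −log10 q at lin-14, lin-42 and hbl-1, in an HDA-1 list each. The hbl-1 window is the one of its pair of main HDA-1 sites that lies closer to the gene. The lin-14 window is chrX:11465302-11465502 on the plus strand, the lin-42 window is chrII:1246979-1247179 on the minus strand and the hbl-1 window is chrX:5821120-5821320 on the plus strand of WBcel235, each printed in the direction of its gene. Capitals mark the GA repeat GAGAGA on either strand.
lin-14: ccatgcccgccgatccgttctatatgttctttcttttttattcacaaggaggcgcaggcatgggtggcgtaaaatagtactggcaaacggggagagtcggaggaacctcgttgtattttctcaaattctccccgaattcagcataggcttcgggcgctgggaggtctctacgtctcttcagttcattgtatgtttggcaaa
lin-42: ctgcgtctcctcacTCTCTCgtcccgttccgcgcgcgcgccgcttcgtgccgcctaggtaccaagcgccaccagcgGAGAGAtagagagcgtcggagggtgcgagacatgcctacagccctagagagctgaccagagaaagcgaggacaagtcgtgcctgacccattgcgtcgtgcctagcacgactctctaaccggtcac
hbl-1: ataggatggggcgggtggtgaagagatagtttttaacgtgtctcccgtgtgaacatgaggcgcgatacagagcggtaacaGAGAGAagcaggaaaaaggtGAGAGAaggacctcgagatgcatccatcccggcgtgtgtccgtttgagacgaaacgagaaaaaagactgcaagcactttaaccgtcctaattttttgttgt
The lin-42 and hbl-1 windows held 2 GA repeats each and the lin-14 window held 0. GAGAGA was found in 33.2% of 12108 windows of the same length around HDA-1 summits in glp-1(e2141). The other motifs searched on both strands, TGATAA (a site of ELT zinc-finger factors, 30.8% of those windows), AGGTCA (a nuclear receptor half-site, 6.47%), TTTCNCTTT (a BLMP-1 site, 6.05%) and CACGTG (an E-box, 5.4%), had no match in the 3 windows. The lin-42 window was 63.2% GC, above 99.9% of the HDA-1 windows, whose median was 38.3%. The lin-14 window was 48.8% GC and the hbl-1 window 48.3%, above 89.6% and 88.4% of the HDA-1 windows.

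LIN-14, a nuclear protein of early larval fates whose mRNA is silenced by the lin-4 microRNA, is encoded on chromosome X (11465560 to 11485871, plus strand, 20312 bp). Its promoter site, 158 bp before the gene start, had a summit in 20 of 22 lists. HDA-1 fold there was 9.24 in set-26(tm2467) and 14.3 in hcf-1(pk924), against 10.2 in control worms, on glp-1 RNAi. The values on L4440 were 4.78 in set-26(tm2467) and 9.92 in hcf-1(pk924), against 10.2 in control worms. Against antibody background HDA-1 fold was 13.8 in glp-1(e2141), against 10.3 in wild type, which placed the lin-14 peaks above 99.8% and 98.7% of the peaks of their lists. SET-26 was weaker at the same site, at 2.0 to 3.4 in 6 of 6 lists.

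HDA-1 did not stop at the lin-14 promoter. In the glp-1(e2141) list 7 HDA-1 peaks covered 69.8% of lin-14 and its 2000 bp upstream, and in the wild-type list 12 peaks covered 48.9%. Protein-coding genes with more HDA-1 peaks than lin-14 numbered 62 in the glp-1(e2141) list and 3 in the wild-type list. SET-26 covered 16.5% in glp-1(e2141), against 1.41% in wild type, and HCF-1 covered 18.6% in glp-1(e2141), against 3.89% in wild type, by the antibody lists. The HCF-1 coverage of lin-14 was larger over H3, at 56.8% in glp-1(e2141) and 27.1% on glp-1 RNAi in control worms. Of 31 lin-14 sites with a summit in the glp-1(e2141) antibody lists, 15 had a summit of HDA-1 alone and 3 of all 3 factors. Sites inside a peak of another factor whose summit lay elsewhere are not counted for that factor. The strongest of the intronic sites in those lists, 7781 bp and 8000 bp into the gene, shared an HDA-1 summit of 5.22-fold in glp-1(e2141) and 3.61-fold in wild type.

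**Figure D1:**
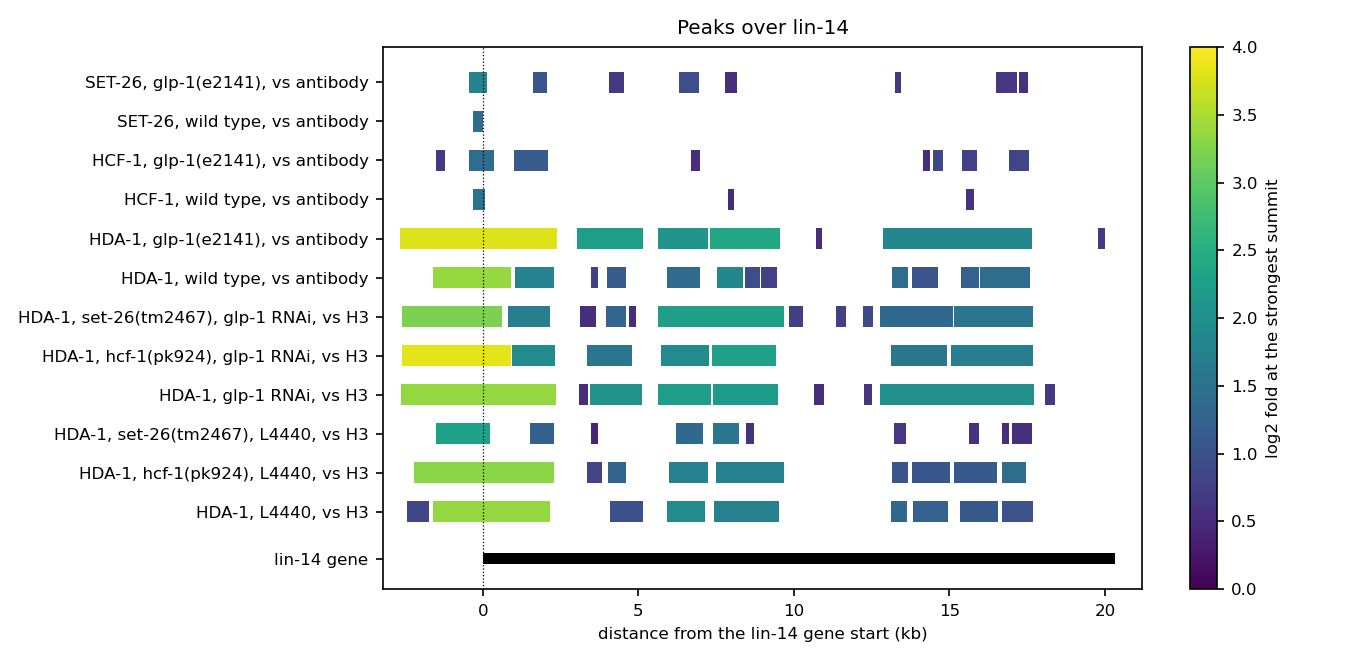
Peaks over lin-14 by distance from its start in kb, in the antibody lists and all HDA-1 lists. Each list is 1 row and color gives the log2 fold at the strongest summit. The black bar is the gene. HDA-1 peaks covered 69.8% of the region in glp-1(e2141), against 48.9% in wild type, over antibody background. SET-26 covered at most 16.5%, and HCF-1 over H3 in glp-1(e2141), which is not drawn, covered 56.8%.

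HCF-1 at the lin-14 promoter varied with the control library and the genotype. In glp-1(e2141) the same HCF-1 library gave 5.60-fold over H3 and 2.65-fold over antibody background at lin-14. In set-26(tm2467) with glp-1(e2141) the fold was 2.09 (1.90 to 2.29), against 5.60 (5.23 to 5.99) in control worms, both over H3. On glp-1 RNAi and on L4440 the set-26(tm2467) lists held no HCF-1 peak at lin-14, against 10 control peaks of up to 2.61-fold on glp-1 RNAi and 1 control peak of 1.64-fold on L4440.

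LIN-28, the RNA-binding protein that blocks maturation of the let-7 microRNA, is encoded on chromosome I (8407630 to 8410804, minus strand, 3175 bp), the shortest of the 7 genes. It was the only one with a peak in 22 of 22 lists. The site in its intron 866 bp into the gene, 18 bp before an internal transcript start, had a summit in every list. SET-26 fold there was 6.70 in hcf-1(pk924), against 9.54 in control worms, on glp-1 RNAi, and 6.23 in hcf-1(pk924), against 5.52 in control worms, on L4440. HDA-1 fold was 3.15 to 7.93 over 8 lists. For HCF-1 the site had 1.69-fold in set-26(tm2467), against 5.36-fold in control worms, on glp-1 RNAi. With glp-1(e2141) it had 2.12-fold in set-26(tm2467), against 6.26-fold in control worms, and on L4440 1.58-fold in set-26(tm2467), against 3.67-fold in control worms. HCF-1 was thus lower in the mutant in each of the 3 settings and still had a summit there.

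The upstream signal of lin-28 is shared with a neighboring gene. A second site 619 bp upstream had a summit in 21 of 22 lists, with HDA-1 at 3.26 to 6.82-fold and SET-26 at 3.45 to 6.93-fold. The broad peak that holds it ran on over the start of F02E9.7, and its strongest SET-26 summit on glp-1 RNAi lay beyond the lin-28 region, 559 bp into F02E9.7. At the other end of the gene, a SET-26 peak of 7.12-fold in glp-1(e2141) and 7.39-fold in wild type overlapped the lin-28 3' end, but the strongest summit of the matching glp-1 RNAi peak lay 58 bp into F02E9.1. The 3' end site itself, 3072 bp into the gene, had a summit in 6 of 6 SET-26 lists at up to 3.47-fold, in 3 of 8 HCF-1 lists and in 0 of 8 HDA-1 lists.

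**Figure D2:**
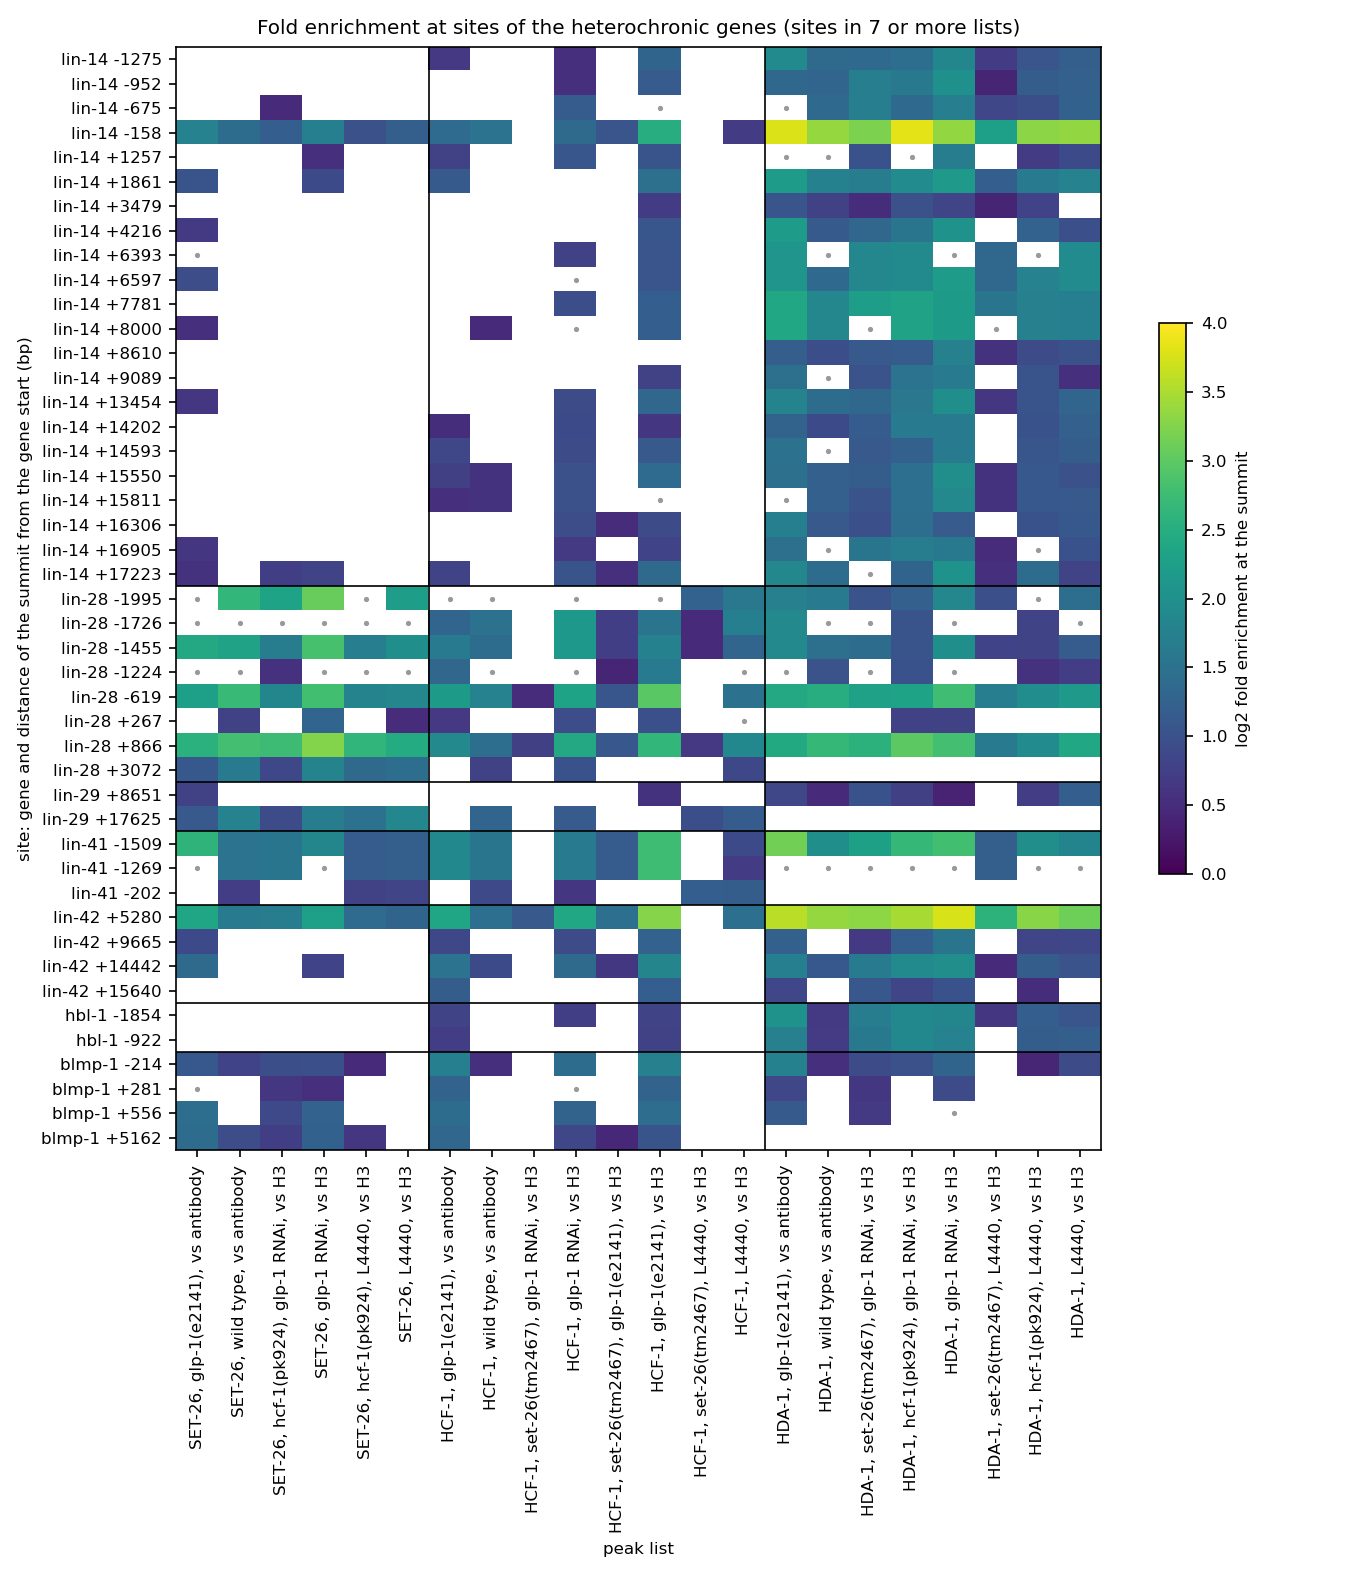
Log2 fold at the 45 of 99 sites that had a summit in at least 7 lists, with sites as rows and the 22 lists as columns, mutant left of control. Blank cells had no peak and dots mark a site inside a peak whose summit lay elsewhere. The lin-14 promoter and the lin-42 intron were strongest in HDA-1 columns, and lin-28 866 bp into the gene was filled in all 22 columns.

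LIN-42, the worm relative of the circadian protein Period, times the molts and is encoded on chromosome II (1233236 to 1252359, minus strand, 19124 bp). Its main site lay in an intron, 5280 bp into the gene and 3044 bp before the nearest transcript start, and had a summit in 21 of 22 lists. HDA-1 fold was 10.04 in set-26(tm2467) and 11.1 in hcf-1(pk924), against 13.5 in control worms, on glp-1 RNAi. On L4440 it was 6.0 in set-26(tm2467) and 9.76 in hcf-1(pk924), against 8.68 in control worms. The lower value in set-26(tm2467) than in control worms was thus seen at lin-42 on both diets. HCF-1 fold was 2.17 (1.87 to 2.50) in set-26(tm2467), against 5.26 (4.84 to 5.71) in control worms, on glp-1 RNAi. With glp-1(e2141) it was 2.74 (2.49 to 3.02) in set-26(tm2467), against 9.66 (9.13 to 10.2) in control worms. The exception among the lists was HCF-1 in set-26(tm2467) on L4440, which had no lin-42 peak, against 2.76-fold in control worms. SET-26 fold was 3.25 in hcf-1(pk924), against 4.80 in control worms, on glp-1 RNAi, and 2.63 in hcf-1(pk924), against 2.44 in control worms, on L4440.

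Further lin-42 sites were weaker. The intronic site 14442 bp into the gene had a summit in 8 of 8 HDA-1 lists at 1.41 to 3.92-fold, in 5 of 8 HCF-1 lists and in 2 of 6 SET-26 lists. Sites 9665 bp and 15640 bp into lin-42 had a summit in 6 and 5 of 8 HDA-1 lists.

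LIN-41, a TRIM-NHL RNA-binding protein that is a target of let-7 and acts before LIN-29, also works in oocytes and is encoded on chromosome I (9334800 to 9342496, minus strand, 7697 bp). A pair of upstream sites behaved differently. The distal site, 1509 bp upstream, had a summit in 20 of 22 lists and in 8 of 8 HDA-1 lists. In glp-1(e2141), against wild type, its fold was 8.87 against 3.99 for HDA-1, 6.08 against 2.89 for SET-26 and 3.66 against 2.94 for HCF-1, all over antibody background. The distal lin-41 site was thus higher without a germline for each factor. The proximal site, 202 bp upstream, had a summit in 7 lists, 3 of SET-26 and 4 of HCF-1, and in 0 of 8 HDA-1 lists. These were the 6 SET-26 and HCF-1 lists of worms with a germline, at 1.65 to 2.29-fold, and the HCF-1 list of control worms on glp-1 RNAi, at 1.56-fold.

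The fate of HCF-1 in set-26(tm2467) also differed between the lin-41 sites. On L4440 the proximal peak had 2.29-fold (1.98 to 2.63) in set-26(tm2467), against 2.27-fold (1.93 to 2.64) in control worms, whereas the distal control peak of 1.87-fold was overlapped by no mutant peak. With glp-1(e2141) the distal peak had 2.25-fold (2.03 to 2.49) in set-26(tm2467), against 6.78-fold (6.33 to 7.25) in control worms. On glp-1 RNAi the mutant list held no peak at lin-41, against control peaks of 3.16-fold and 1.56-fold.

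**Figure D3:**
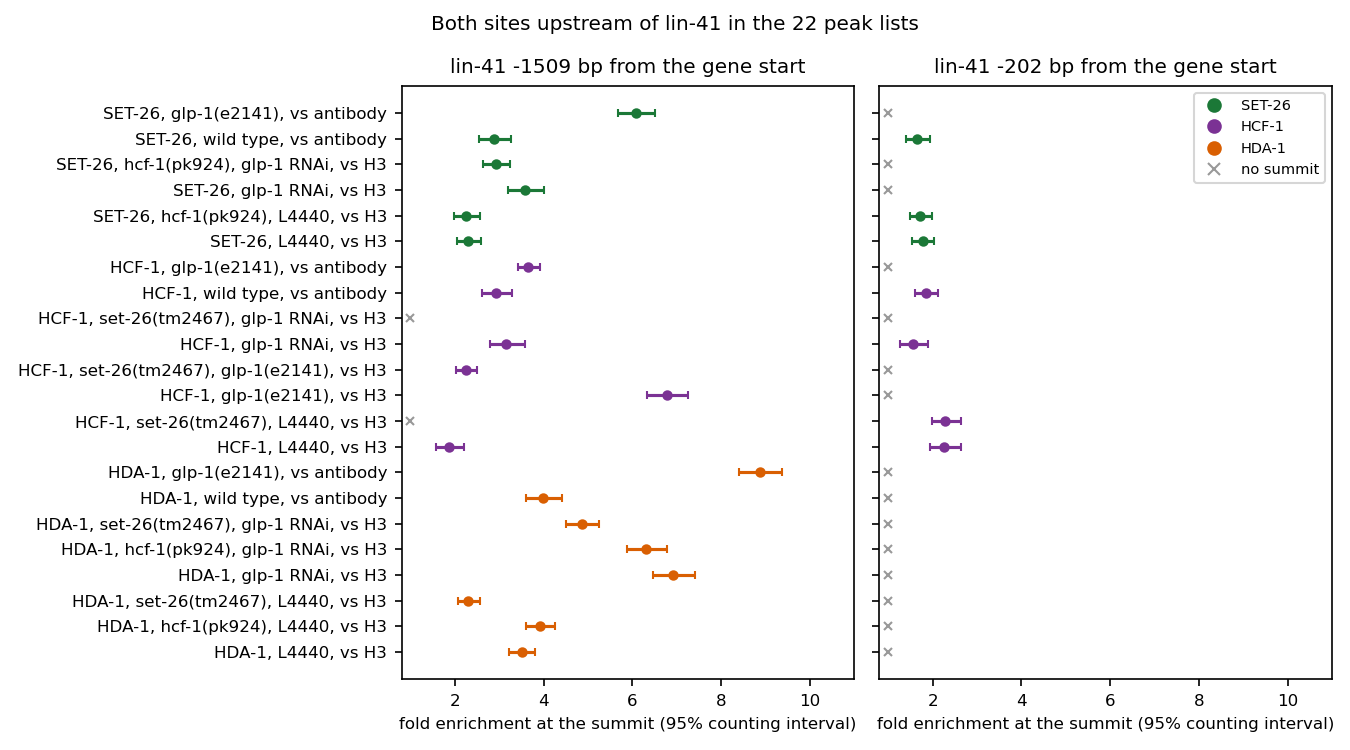
Fold at the lin-41 sites 1509 bp (left) and 202 bp (right) upstream of the gene in each of the 22 lists, colored by factor with exact 95% counting intervals, and with a cross where a list had no summit. The distal site was filled in 20 lists and the proximal site in 7, none of them of HDA-1 or of glp-1(e2141).

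LIN-29, the zinc-finger transcription factor of the larval-to-adult switch, is encoded on chromosome II (11917642 to 11935343, minus strand, 17702 bp) and had a peak in 19 of 22 lists. The lin-29 site seen in most lists of SET-26 lay at the 3' end and that of HDA-1 in an intron. The 3' end site, 17625 bp into the gene, had a summit in 6 of 6 SET-26 lists at 1.90 to 3.61-fold, in 4 of 8 HCF-1 lists at 1.95 to 2.48-fold and in 0 of 8 HDA-1 lists. The SET-26 peak of 12.97-fold in wild type and 11.9-fold in control worms on L4440 that reached the lin-29 end had its strongest summit outside the gene, on L4440 106 bp before the start of vps-15 and 555 bp before the start of hmg-12. The intronic site, 8651 bp into the gene, had a summit in 7 of 8 HDA-1 lists at 1.31 to 2.28-fold, and in 1 SET-26 and 1 HCF-1 list. It was absent from the HDA-1 list of set-26(tm2467) on L4440, against 2.28-fold in control worms. On glp-1 RNAi the same HDA-1 site had 2.01-fold (1.82 to 2.22) in set-26(tm2467), against 1.31-fold (1.15 to 1.48) in control worms, so the sign was not the same on the 2 diets. A lin-29 site 1291 bp upstream had a summit in 4 lists, all of glp-1(e2141) control worms. Its fold over antibody background was 1.98 for HDA-1, 1.75 for HCF-1 and 1.48 for SET-26, and HCF-1 had 1.66 over H3. Neither glp-1(e2141) list of HCF-1 in control worms had the lin-29 3' end site. A SET-26 summit 11537 bp into lin-29, of 2.12-fold, was seen only in hcf-1(pk924) on glp-1 RNAi.

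HBL-1, the Hunchback-like zinc-finger factor of early larval fates, is encoded on chromosome X (5822142 to 5827755, plus strand, 5614 bp). It was the only gene of the 7 without SET-26, in 0 of 6 lists. HDA-1 had a summit 1854 bp upstream in 8 of 8 lists. HDA-1 fold at that site was 3.21 in set-26(tm2467) and 3.65 in hcf-1(pk924), against 3.59 in control worms, on glp-1 RNAi. On L4440 it was 1.55 in set-26(tm2467) and 2.29 in hcf-1(pk924), against 2.08 in control worms. HDA-1 was stronger at hbl-1 without a germline, at 4.14-fold in glp-1(e2141) and 1.61-fold in wild type. The second hbl-1 site, 922 bp upstream, whose sequence is printed above, had a summit in 7 of 8 HDA-1 lists at 1.64 to 3.66-fold and was missing in set-26(tm2467) on L4440. HCF-1 had hbl-1 peaks only in the 3 lists of control worms without a germline, at 1.66 to 1.77-fold, of which the glp-1(e2141) pair shares 1 HCF-1 library, and in 0 of the 3 set-26(tm2467) lists.

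BLMP-1, the PRDM1 homolog that acts with the pathway in the epidermis, is encoded on chromosome I (10409302 to 10414773, plus strand, 5472 bp) and had a peak in 17 of 22 lists. Its promoter site, 214 bp upstream, had a summit in 16 lists. In glp-1(e2141), against wild type, its fold was 3.37 against 1.48 for HDA-1, 3.31 against 1.47 for HCF-1 and 2.16 against 1.75 for SET-26. HCF-1 there had 3.33-fold in glp-1(e2141) control worms over H3 and no overlapping peak in set-26(tm2467). The blmp-1 site 5162 bp into the gene, in the 3' UTR, had a summit in 5 of 6 SET-26 lists, 4 of 8 HCF-1 lists and 0 of 8 HDA-1 lists. On L4440 neither SET-26 nor HCF-1 had a blmp-1 peak in control worms, whereas SET-26 had 2 in hcf-1(pk924), at 1.39-fold and 1.56-fold.

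In the antibody lists, which ask where each factor binds, nearly all of the 7 genes had a peak. HCF-1 was found at 7 of 7 genes in glp-1(e2141) and 6 of 7 in wild type, against 41.7% and 35.3% of all protein-coding genes. SET-26 was found at 6 of 7 in both, beside 42.7% of genes in glp-1(e2141) versus 40.5% in wild type. HDA-1 was found at 7 of 7 in both, against 45.6% and 34.6%. All 3 factors were found at 6 of 7 genes in both, beside 32.4% of genes in glp-1(e2141) versus 22.1% in wild type. In wild type lin-29 enters by a SET-26 peak whose strongest summit lay outside the gene. With the strongest summit required in the region, SET-26 was found at 5 of 7 genes in wild type, without lin-29 and hbl-1. Each of the 7 genes was at least 3175 bp long, and of 5993 genes of at least that length 44.6% had a peak of all 3 factors in glp-1(e2141), against 31.5% in wild type, so length moves with the chance to hold a peak.

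Within the genes the summits of the factors were not all at the same sites. Over the 60 sites with a summit in the glp-1(e2141) antibody lists, 47 were HDA-1 sites, 33 were HCF-1 sites and 23 were SET-26 sites. All 3 factors had a summit at 13 of them, HDA-1 alone at 18, and SET-26 or HCF-1 without HDA-1 at 13. In wild type 7 of 55 sites had all 3 factors, 24 had HDA-1 alone and 19 had SET-26 or HCF-1 without HDA-1. Of the sites in at least 7 lists, those at the 3' ends of lin-28, lin-29 and blmp-1 and the proximal lin-41 site had 0 of 8 HDA-1 lists.

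Loss of set-26 went with a loss of HCF-1 peaks at the 7 genes, as it did over the whole list. On glp-1 RNAi a set-26(tm2467) peak overlapped 2 of 22 control peaks at the genes, which is 9.09% (exact Clopper-Pearson interval 1.12 to 29.2%), against 8.87% of all 10618 control peaks. The 2 were at lin-28 and lin-42, and lin-14, with 10 control peaks, had none. The intervals of these shares treat peaks as independent, which neighboring peaks of the same gene need not be. With glp-1(e2141) 7 of 23 were overlapped (30.4%, 13.2 to 52.9%), against 28.3% of all control peaks, and on L4440 3 of 8 (37.5%, 8.52 to 75.5%), against 44.0%. The shares at the 7 genes were therefore close to those of all HCF-1 peaks and gave no result about these genes in particular.

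The HCF-1 peaks that were kept were mostly strong in control worms. Of the control peaks at the 7 genes in the highest quintile of their list by fold, 2 of 2 were kept on glp-1 RNAi, 4 of 4 with glp-1(e2141) and 1 of 1 on L4440. Of those in the 2 lowest quintiles, 0 of 10, 0 of 8 and 0 of 4 were kept. The whole lists had the same pattern, with 34.7% of the highest quintile kept on glp-1 RNAi, 73.4% with glp-1(e2141) and 98.7% on L4440, and 0.232 to 10.9% of the 2 lowest. The kept peaks had a median mutant to control fold ratio of 0.36 on glp-1 RNAi, against 0.354 over all kept peaks, and 0.373 with glp-1(e2141), against 0.44. On L4440 the ratio was 0.87 over 3 peaks, against 0.653. The lin-28 pairs on L4440 and with glp-1(e2141) joined different summits, which lay 2895 bp apart on L4440. The set-26(tm2467) list on glp-1 RNAi was built on 35.2 M tags over 36.9 M of H3, against 27.6 M over 27.1 M in control worms. With glp-1(e2141) these were 69.0 M over 65.6 M, against 55.9 M over 55.9 M. On L4440 they were 37.9 M over 34.5 M, against 31.7 M over 34.4 M. The mutant list on glp-1 RNAi held a promoter peak at 1 of 15 germline markers, against 11 in control worms. The parts of depth and of this in the loss were not tested.

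**Figure D4:**
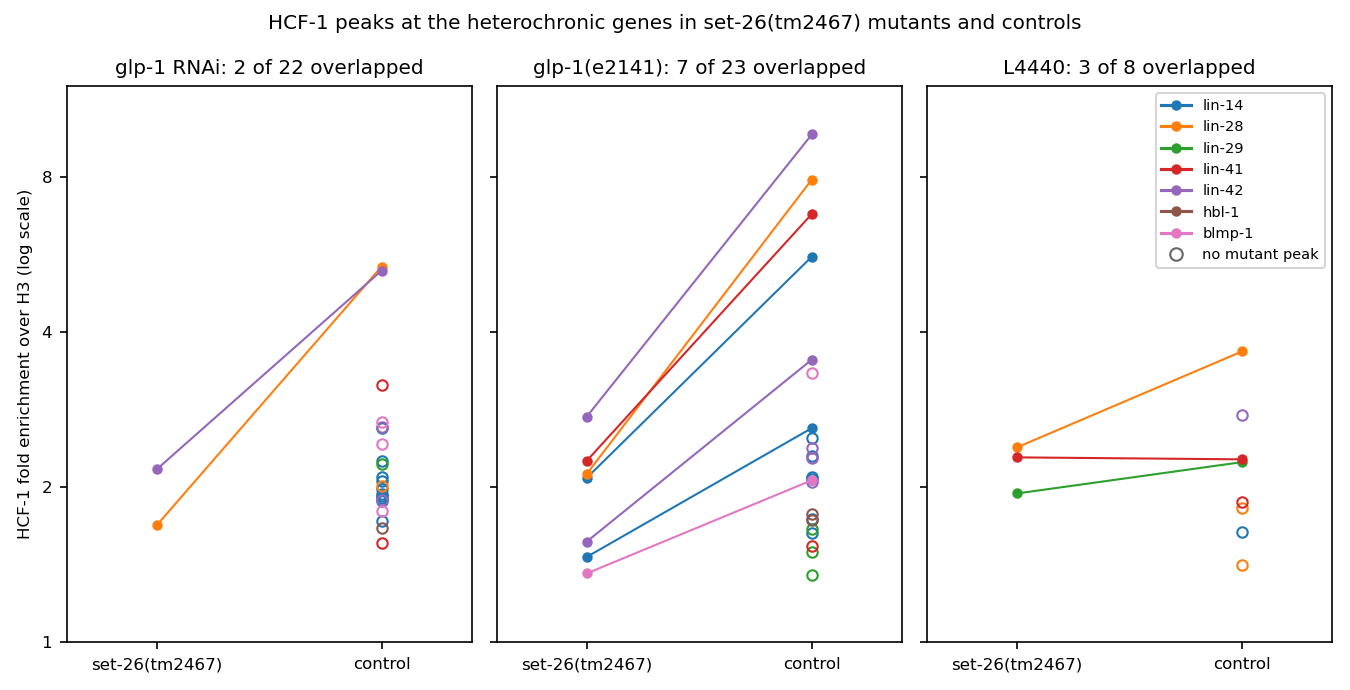
HCF-1 fold over H3 on a log scale at peaks of the 7 genes, set-26(tm2467) left of control, in 3 settings. A line joins a control peak to the overlapping mutant peak with the highest −log10 q and open circles had no mutant peak. The kept peaks were 2 of 22, 7 of 23 and 3 of 8.

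The reverse comparison, SET-26 in hcf-1(pk924), kept most peaks. On glp-1 RNAi a mutant peak overlapped 12 of 15 control peaks at the genes (80.0%, 51.9 to 95.7%), against 67.4% of all control peaks, and on L4440 9 of 9 (100%, 66.4 to 100%), against 83.0%. Weighted to the fold of the peaks at these genes, the shares over all control peaks were 72.2% on glp-1 RNAi and 92.9% on L4440. Both lay inside the intervals. All 6 genes with SET-26 on glp-1 RNAi and all 5 on L4440 still had a peak in the mutant. The 3 control peaks without a mutant peak were 2 in the lin-14 intron and 1 in a lin-42 intron, at 1.47 to 1.85-fold. Of the 12 kept on glp-1 RNAi, 7 had a lower fold in hcf-1(pk924) with intervals apart and 0 a higher one, and the median ratio was 0.706, against 0.751 over all kept peaks. The hcf-1(pk924) list on glp-1 RNAi held a promoter peak at 3 of 15 germline markers, against 8 in control worms, and the part of this was not tested. That list was built on 59.3 M tags over 54.4 M of H3, against 38.4 M over 40.4 M in control worms. The L4440 lists had 46.9 M tags in hcf-1(pk924) and 52.5 M in control worms. The part of depth in the shares kept was not tested. On L4440 1 was lower and 1 higher with intervals apart, and the median ratio was 0.977, against 1.05.

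HDA-1 in set-26(tm2467) kept 19 of 22 control peaks at the genes on glp-1 RNAi (86.4%, 65.1 to 97.1%), against 63.7% of all control peaks. On L4440 it kept 12 of 19 (63.2%, 38.4 to 83.7%), against 39.3%. The shares over all control peaks, weighted to the fold of the peaks at these genes, were 71.6% on glp-1 RNAi and 58.8% on L4440. Both lay inside the intervals, which treat peaks as independent. Of the control peaks, 9 were at lin-14 on each diet, and a mutant peak could overlap several of them, so the intervals are likely too narrow. The lists of set-26(tm2467) on L4440 had no HDA-1 peak at lin-29 and blmp-1, which had 1 and 2 in control worms. Of the 12 kept peaks on L4440, 11 had a lower fold in set-26(tm2467) with intervals apart and 0 a higher one. On glp-1 RNAi 10 of 19 were lower and 1 was higher. Some pairs joined different summits, such as a lower lin-14 pair on glp-1 RNAi whose summits lay 3551 bp apart. Over all kept HDA-1 peaks, without regard to intervals, 92.8% were lower in set-26(tm2467) on L4440 and 86.3% on glp-1 RNAi, against 12 of 12 and 12 of 19 at the genes. The median ratio at the genes was 0.681 on L4440, against 0.661 over all kept peaks, and 0.893 on glp-1 RNAi, against 0.765.

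HDA-1 in hcf-1(pk924), set against the same control lists, kept 17 of 22 control peaks on glp-1 RNAi (77.3%, 54.6 to 92.2%), against 70.4% of all control peaks, and 18 of 19 on L4440 (94.7%, 74.0 to 99.9%), against 77.8%. The shares over all control peaks, weighted by fold in the same way, were 75.4% on glp-1 RNAi and 92.4% on L4440, inside the intervals. Each of the 7 genes kept an HDA-1 peak on both diets. On L4440 3 of the 18 kept peaks were lower and 3 higher with intervals apart, and on glp-1 RNAi 7 of 17 were lower and 4 higher. Among the higher values on L4440, a lin-14 peak of 1.81-fold in control worms was overlapped by the mutant promoter peak of 9.92-fold, which joins different summits. Among those on glp-1 RNAi, a lin-14 peak of 1.415-fold in control worms was paired with a mutant peak of 2.949-fold. Their summits lay 900 bp apart, so this pair joins different summits too. The median ratio was 0.985 on L4440, against 0.939 over all kept peaks, and 0.885 on glp-1 RNAi, against 0.854. The largest rise in fold in hcf-1(pk924) where the summits lay within 200 bp was at the lin-14 promoter on glp-1 RNAi. The fold there was 14.3 (13.7 to 14.99) in hcf-1(pk924), against 10.2 (9.75 to 10.6) in control worms. The −log10 q of these peaks was 1340 in hcf-1(pk924), against 1402 in control worms, so it did not rise with the fold. On L4440 the promoter fold was 9.92 in hcf-1(pk924), against 10.2 in control worms.

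**Figure D5:**
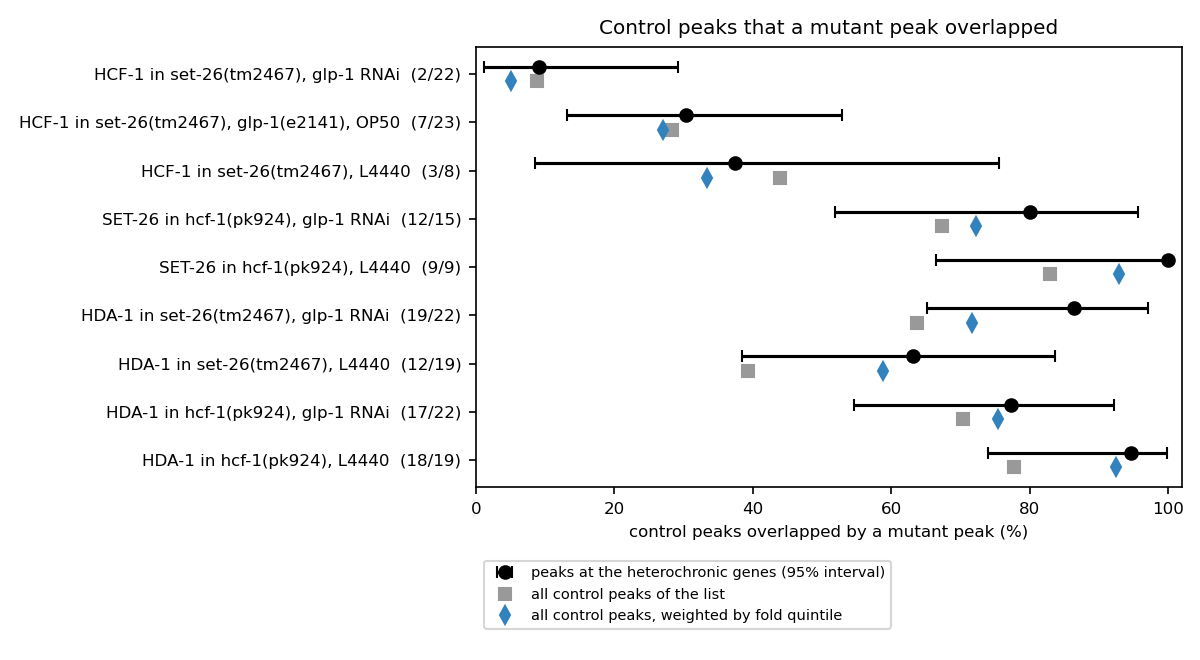
Share of control peaks overlapped by a mutant peak in 9 comparisons. Black points are peaks at the heterochronic genes with exact 95% intervals, gray squares all control peaks of the list and blue diamonds all control peaks weighted by fold quintile. Shares ran between 9.09% for HCF-1 in set-26(tm2467) on glp-1 RNAi and 100% for SET-26 in hcf-1(pk924) on L4440.

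HCF-1 lists of control worms without a germline held more peaks, at the 7 genes and in all. On glp-1 RNAi there were 22 HCF-1 peaks at the genes, against 8 on L4440, in lists of 10618 and 7246 peaks. With glp-1(e2141) there were 21, against 13 in wild type, in lists of 9961 and 8732 peaks. At sites with a summit in both lists HCF-1 fold was higher without a germline at 9 of 11 on RNAi diets, against 67.4% of all summits shared by the lists within 200 bp, and at 9 of 12 on OP50, against 71.7%. HDA-1 peaks covered 26212 bp of the genes in glp-1(e2141), against 16978 bp in wild type, and 27905 bp on glp-1 RNAi, against 20164 bp on L4440. HDA-1 fold was higher without a germline at 27 of 29 sites on OP50 and 34 of 36 on RNAi diets, against 81.3% and 91.4% of all shared summits. SET-26 had 21 peaks in glp-1(e2141), against 15 in wild type, in lists of 13422 and 11845 peaks. SET-26 fold was higher in glp-1(e2141) at 6 of 11 shared sites, against 34.3% of all shared summits, and on glp-1 RNAi relative to L4440 at 10 of 11, against 83.6%. HDA-1 had 21 peaks at the genes in both glp-1(e2141) and wild type, in lists of 12112 and 8332 peaks. SET-26 peaks covered 13800 bp of the genes in glp-1(e2141), against 13858 bp in wild type. The peak counts at the genes thus went the way of the whole lists, apart from HDA-1 on OP50. The folds did so apart from SET-26 on OP50, and no test of a difference was made. Germline presence went with diet or the glp-1 allele and with depth and the number of peaks in the list, so these cannot be told apart at the genes.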

How the data were processed

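CUT&RUN peak lists of HDA-1, SET-26 and HCF-1 from 83 samples in 41 groups were used. Reads were, per the study's methods and the notes of the submitters on processing, trimmed with Trim Galore 0.6.5, aligned with Bowtie2 2.4.3 to WBcel235 and merged over the replicates of a group. MACS2 2.1.4 was run by the authors at q 0.01, with fragments of 200 bp and duplicates kept, per the file headers. As signal, the deposited tables give the number of fragments piled up at the summit, with the larger library scaled to the smaller. The fold is the authors' ratio of that pileup to local background. The deposited −log10 q values come from the authors' Poisson test. The deposited score is 10 times −log10 q and was not used. Both formats of a list held the same peak intervals in 22 of 22 lists.

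Entries with the same start and end were counted as 1 peak with the strongest summit. Coordinates are 1-based. Genes came from Ensembl release 115, and sequences were read from the WBcel235 genome. A control peak was kept when a mutant peak overlapped it by at least 1 bp. Where several did, the one of highest −log10 q gave the mutant fold. In broad peaks the paired summits could therefore lie at different sites. All 7 genes are named, with the sites that most lists of a factor shared and others where they bear on a comparison, and peaks not described enter only the counts. The same counts are given for 30 other heterochronic genes, with values for the 3 strongest in the glp-1(e2141) antibody lists by −log10 q. The pathway, marker and gene lists and comparisons were chosen with earlier results of these data known. Because replicates had been merged before peak calling, there was neither a test nor a fit that left out a replicate. The study's DiffBind test needs the reads of each replicate, which were not used here. Alternatives changed the overlap, the peak threshold and the region of a gene. The overlap code was tested on simulated data. Computing used Python 3.11.15, NumPy 2.4.6, pandas 2.3.3, SciPy 1.17.1 and matplotlib 3.10.9.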

Additional observations from a re-analysis of the deposited data

How the results depend on the processing

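Of 54 alternative values for the 9 shares of peaks kept, 45 stayed within the counting interval of the reported share. Of 35 alternative counts of genes with a peak, 14 equalled the reported count and 21 were lower, down to 4 of 7, of which 1 differed by over 1.5 times. With only control peaks of at least 2-fold, the share kept was 100% (9 of 9) for SET-26 in hcf-1(pk924) on glp-1 RNAi, 100% (15 of 15) for HDA-1 in set-26(tm2467) on glp-1 RNAi, 85.7% (12 of 14) for HDA-1 in set-26(tm2467) on L4440, and 100% for HDA-1 in hcf-1(pk924) on glp-1 RNAi (15 of 15) and on L4440 (14 of 14). In a promoter window (2000 bp before the gene start to 500 bp after it), it was 100% (6 of 6 each) for SET-26 in hcf-1(pk924), HDA-1 in set-26(tm2467) and HDA-1 in hcf-1(pk924), all on glp-1 RNAi. With 1000 bp upstream, it was 100% (16 of 16) for HDA-1 in hcf-1(pk924) on L4440. With peaks of at least 2-fold, 4 of 7 genes had HDA-1 in wild type, without lin-29, hbl-1 and blmp-1. These alternatives use fewer peaks by construction. HCF-1 in set-26(tm2467) stayed inside its wide intervals, but with control peaks of at least 2-fold its share kept was over 1.5 times the reported one, at 16.7% (2 of 12) on glp-1 RNAi, 46.7% (7 of 15) with glp-1(e2141) and 75% (3 of 4) on L4440. No paired analysis was possible because every list was called on merged replicates, and for the same reason no replicate was left out. Weak peaks near the calling threshold limit the shares, since a peak just under it counts as lost.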

Other observations

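Other heterochronic genes, 30 of 30 of which were found in the annotation, gave the following values. SET-26 had a peak at 23 to 26 of the 30 in its control lists, HCF-1 at 20 to 27 and HDA-1 at 24 to 26. Of all protein-coding genes, 40.5 to 42.7% had SET-26, 35.3 to 41.7% HCF-1 and 34.6 to 45.6% HDA-1 in the antibody lists. HCF-1 in set-26(tm2467) had a peak at 8 on glp-1 RNAi, 19 with glp-1(e2141) and 11 on L4440, against 27, 27 and 20 in control worms. Of their HCF-1 control peaks, 10 of 69 were kept in set-26(tm2467) on glp-1 RNAi (14.5%, 7.17 to 25.0%), 26 of 83 with glp-1(e2141) (31.3%, 21.6 to 42.4%) and 16 of 33 on L4440 (48.5%, 30.8 to 66.5%). Of all HCF-1 control peaks 8.87%, 28.3% and 44.0% were kept in these settings. SET-26 in hcf-1(pk924) kept 62 of 87 on glp-1 RNAi (71.3%, against 67.4% of all control peaks) and 56 of 60 on L4440 (93.3%, against 83.0%). HDA-1 in set-26(tm2467) kept 66 of 97 on glp-1 RNAi (68.0%, against 63.7%) and 36 of 69 on L4440 (52.2%, against 39.3%). HDA-1 in hcf-1(pk924) kept 72 of 97 (74.2%, against 70.4%) and 55 of 69 (79.7%, against 77.8%). The shares over all control peaks were not weighted by fold here, and most shares lay near them.

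By −log10 q in the glp-1(e2141) antibody lists, the strongest of these genes were din-1, ain-1 and lin-66, each by an HDA-1 peak. At din-1, which encodes a corepressor of the nuclear receptor DAF-12, HDA-1 fold was 24.7 in glp-1(e2141), against 14.3 in wild type. It was 18.9 in set-26(tm2467) and 17.5 in hcf-1(pk924), against 22.6 in control worms, on glp-1 RNAi, and 8.84 in set-26(tm2467) and 15.3 in hcf-1(pk924), against 14.4 in control worms, on L4440. At ain-1, a GW182 protein of the microRNA silencing complex, HDA-1 fold was 12.9 in glp-1(e2141), against 14.8 in wild type, whereas it was 22.7 on glp-1 RNAi, against 11.6 on L4440, in control worms. At ain-1 HCF-1 fold with glp-1(e2141) was 3.84 in set-26(tm2467), against 8.81 in control worms. At lin-66, HCF-1 fold with glp-1(e2141) was 4.43 in set-26(tm2467), against 13.8 in control worms, and HDA-1 fold on L4440 was 7.30 in set-26(tm2467), against 12.8 in control worms. These 3 genes had a peak in each of the 22 lists, as lin-28 did. The lists with a peak were identical over all 22 lists for lin-14 and lin-4, mir-48, mir-241 and mab-10, for lin-41 and lin-46, and for lin-42 and alg-1, puf-9 and myrf-1. No gene among the 30 had exactly the pattern of lin-29, hbl-1 or blmp-1, but some came close. The pattern of dcr-1 differed from that of lin-29 in 1 list. That of mir-84, also without SET-26 in any list, differed from hbl-1 in 2 lists. Those of dre-1, daf-12, kin-20 and sea-2 differed from blmp-1 in 2 lists.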
